A study of Mus musculus with 6 samples.

Results

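The miR-379/miR-410 miRNAs come from a stretch of hairpins in the imprinted Dlk1-Dio3 region of mouse chromosome 12. They were taken by name from the 2 tables of AGO2-bound miRNAs, as both arms of 34 listed hairpins, which gave 68 of the 1978 mature miRNAs counted. The naming rule itself used no measured value, although the group was singled out with earlier results of these data known. The source was cultured mouse embryonic stem cells, named E14 in the libraries, whose genotype was Spy3-Ago2. They were kept undifferentiated on gelatin in serum medium with the cytokine LIF. AGO2, the Argonaute protein that carries miRNAs to their targets, bore a Spy3 tag and was pulled down with SpyCatcher3, a protein that binds this tag covalently. Both miRNA libraries are of that 1 genotype without further treatment, so no contrast between conditions exists and each value is a description with the spread between 2 libraries. Nothing in the labels tells if the replicates came from separate cultures, and the spread may therefore be technical. Of the 6 libraries of the series, the 2 target and 2 input libraries hold other RNA and were not used for miRNA levels.

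A miRNA hairpin is cut into a short duplex, and AGO2 keeps 1 strand of it as the guide, either the 5p strand from the first arm of the hairpin or the 3p strand from the second arm. Bases 2 to 8 of the guide, the seed, pair with target RNAs and largely decide which RNAs are bound. The miRNAs of the Dlk1-Dio3 region are made from the maternally inherited chromosome, together with the noncoding RNAs Meg3, Rian and Mirg. The miR-379/miR-410 group is best known from brain, where members such as miR-329 act in dendrite growth, and from the newborn liver and placenta. In pluripotent cells, loss of expression from the region is known to accompany reduced developmental potential of some reprogrammed lines.

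The 34 hairpins lay on the plus strand between chr12:109709060 and 109747960 of the GRCm38.p6 assembly, the same assembly as the mm10 build of the files, over 38901 nt from Mir379 to Mir3072. In the RefSeq annotation the last 9 hairpins, miR-154 to miR-3072, lay within the span of the noncoding gene Mirg (chr12:109734981-109749458). The first 25 hairpins, miR-379 to miR-485, overlapped no annotated gene other than miRNA genes. Exons and introns were not used here. RefSeq mature sequences were matched by name for 64 of the 68 members, all but miR-376c-3p, miR-487b-3p, miR-539-3p and miR-485-5p. The 16 members at 0.05% or more of the library are listed from the most to the least abundant, because they carry most of the signal of the group, with the seed in capitals and the position on the plus strand of chromosome 12.
miR-495-3p: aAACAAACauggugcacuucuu (chr12:109718795-109718816)
miR-543-3p: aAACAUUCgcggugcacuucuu (chr12:109717304-109717325)
miR-376b-3p: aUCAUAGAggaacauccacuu (chr12:109723508-109723528)
miR-541-5p: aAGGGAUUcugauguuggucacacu (chr12:109742422-109742446)
miR-376a-3p: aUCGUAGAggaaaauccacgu (chr12:109723824-109723844)
miR-409-3p: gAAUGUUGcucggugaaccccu (chr12:109743204-109743225)
miR-411-3p: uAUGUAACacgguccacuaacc (chr12:109710225-109710246)
miR-494-3p: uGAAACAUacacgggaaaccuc (chr12:109715367-109715388)
miR-300-3p: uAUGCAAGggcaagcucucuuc (chr12:109724363-109724384)
miR-379-3p: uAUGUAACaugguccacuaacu (chr12:109709102-109709123)
miR-758-3p: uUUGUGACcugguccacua (chr12:109712858-109712876)
miR-485-3p: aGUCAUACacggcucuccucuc (chr12:109734946-109734967)
miR-410-3p: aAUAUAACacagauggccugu (chr12:109743764-109743784)
miR-154-3p: aAUCAUACacgguugaccuauu (chr12:109738474-109738495)
miR-667-3p: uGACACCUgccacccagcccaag (chr12:109720061-109720083)
miR-377-3p: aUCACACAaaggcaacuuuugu (chr12:109740553-109740574)
Among these 16 miRNAs, 15 come from the 3p arm, and miR-379-3p and miR-411-3p are the only 2 with the same seed. The other 14 seeds are all different from each other.

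The miRNA libraries held 12562727 counts in replicate 1 and 22908172 in replicate 2, a 1.82-fold difference in depth. The libraries carried the markers of the labelled cells. The miR-290/miR-295 cluster, characteristic of mouse embryonic stem cells, held 39.4% and 38.8% of the counts, and each of its 18 listed names had counts. The listed let-7 miRNAs of differentiated cells held 0.0122% and 0.0103%, with 1 of 8 names (let-7b-3p) at 0. The 5 muscle names held 0.000422% and 0.000572%, with miR-133a-5p and miR-206-5p at 0 in both. The 2 liver names held 0.000899% and 0.00315%. The 4 neuronal names held 0.997% and 1.66%, most of it miR-124-3p with 0.899% and 1.57%. The 6 blood names held 0.846% and 0.944%, most of it miR-150-5p with 0.635% and 0.718%. Of the other blood names, miR-142a-3p held 0.0971% and 0.119%, miR-142a-5p 0.112% and 0.105%, and miR-223-5p was at 0. The 8 fibroblast names held 0.167% and 0.179%, most of it miR-145a-5p with 0.146% and 0.159%, and miR-199a-3p was at 0. Its partner strand miR-199a-5p had 632 and 1201 counts, so that 0 does not show the hairpin to be absent. Names of other cell types were thus also present in the libraries. The part of such cells in the miR-379/miR-410 levels was not tested.

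As a group, the miR-379/miR-410 miRNAs had 502799 counts in replicate 1 and 841085 in replicate 2. In replicate 1 the group made up 4.0% of all miRNA counts, with a 95% Wilson interval of 3.99% to 4.01%. In replicate 2 it made up 3.67%, with an interval of 3.66% to 3.68%. The mean was 3.84% ± 0.234 (SD, n = 2, as for every mean that follows). Replicate 1 was 1.09-fold above replicate 2, a gap wider than the counting intervals. For the 16 most abundant members the counting interval reached at most 2.27% of the share to either side. These intervals cover counting error only, and PCR copies that were not collapsed would make them too narrow. A share is per library and not per length, since 1 mature miRNA gives 1 read.

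Most of the group was present in AGO2. At least 10 counts in each library were recorded for 60 of the 68 members, against 34.2% of all 1978 miRNAs. The same held for 31 of the 36 listed names that lie upstream in the Dlk1-Dio3 region, for all 12 of miR-17-92 and for all 18 of miR-290/miR-295. At least 100 counts in each library were recorded for 49 members, against 21.6% of all miRNAs, and at least 1000 for 32, against 13.0%. The 8 members below 10 counts in a library were all 5p strands. miR-487b-5p, miR-496a-5p and miR-1197-5p had 0 counts in both libraries, which allows a share of up to 2.39e-05% in replicate 1 and 1.31e-05% in replicate 2 (3 counts). miR-494-5p had 1 and 2 counts, miR-410-5p 1 and 4, miR-1193-5p 4 and 9, miR-495-5p 6 and 24, and miR-376c-5p 8 and 21. Among these 8, the 5p strands of miR-495 and miR-494 come from hairpins whose 3p strands rank first and eighth in the group. The 60 members with 10 counts spanned an 8832-fold range of counts in replicate 1 and a 9859-fold range in replicate 2.

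miR-495-3p was the most abundant member, with 97150 counts (0.773%) in replicate 1 and 167597 counts (0.732%) in replicate 2. It ranked place 21 among all miRNAs of the libraries by mean share. miR-543-3p followed with 0.453% and 0.361%, and miR-376b-3p with 0.410% and 0.377%. The lead of miR-495-3p over both exceeded the spread between replicates, while miR-543-3p and miR-376b-3p changed order between the replicates. miR-541-5p, the most abundant 5p strand of the group, held 0.347% and 0.301%. miR-376a-3p held 0.275% and 0.255%, and miR-409-3p 0.253% and 0.218%. Each of these 6 miRNAs was lower in replicate 2 than in replicate 1. miR-411-3p held 0.207% and 0.200%, and miR-494-3p 0.206% and 0.173%, a difference between the 2 miRNAs below the larger SD. miR-300-3p with 0.112% and 0.122% and miR-379-3p with 0.100% and 0.101% completed the 10 members at or above 0.1%, and in these last 2 the values of replicate 2 were the higher ones.

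**Figure D1:**
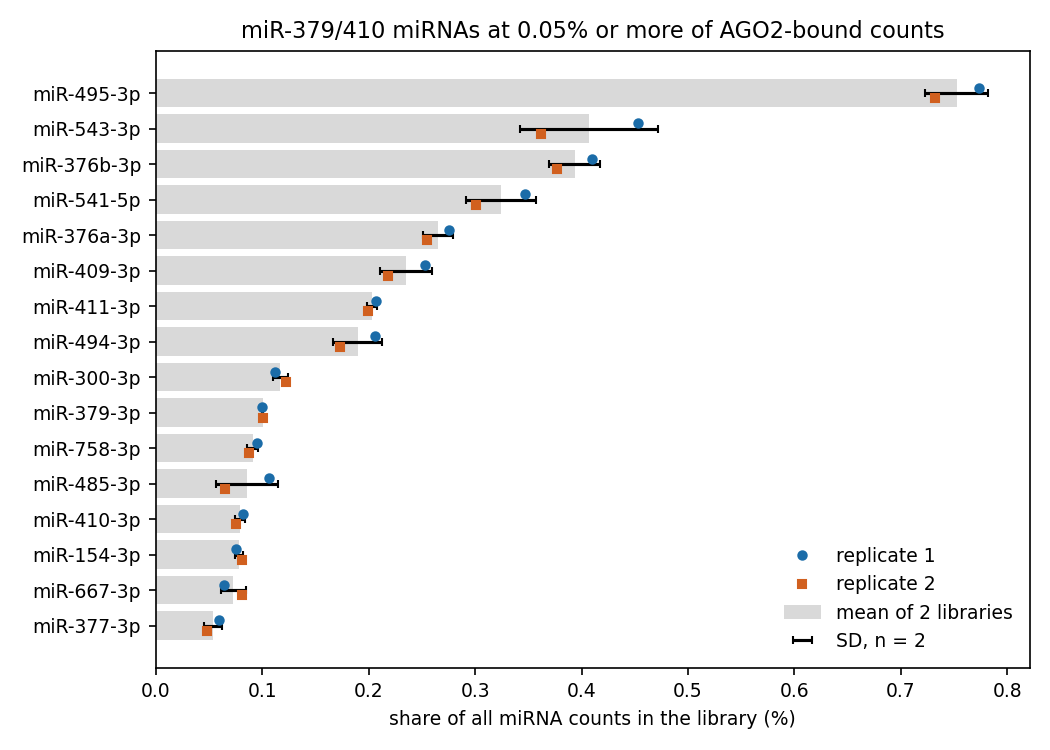
Share of all miRNA counts (%, linear axis from 0) of the 16 miR-379/miR-410 miRNAs at 0.05% or more, with bars for the mean of 2 libraries, error bars for the SD, circles for replicate 1 and squares for replicate 2. miR-495-3p lies at 0.752% and stands apart from the next member, miR-543-3p at 0.407%, while the members from miR-758-3p to miR-667-3p lie close together.

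Below 0.1%, the order was less settled. miR-758-3p held 0.0948% and 0.0873%, miR-410-3p 0.0823% and 0.0755%, and miR-154-3p 0.0756% and 0.0812%. miR-485-3p held 0.107% and 0.0650% and miR-667-3p 0.0645% and 0.0813%, which placed miR-485-3p above miR-758-3p in replicate 1 and below miR-667-3p in replicate 2. miR-377-3p was the last of the 16 with 0.0594% and 0.0481%. Of the 15 neighbouring pairs in this order, 9 differed by more than the larger SD of the pair and 5 changed order in a replicate. The next 16 members, from miR-376c-3p at 0.0448% ± 0.00305 to miR-299a-3p at 0.0108% ± 0.0014, lay between 0.01% and 0.05%. Over all 68 members the median share was 0.00593%.

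The counts were spread over many members. The 5 most abundant miRNAs held 55.8% ± 0.886 of the counts of the group, the 10 most abundant 77.9% ± 0.719 and the 20 most abundant 93.5% ± 0.894. miR-495-3p alone held 19.6% ± 0.427. The effective number of members, the number of equally abundant miRNAs that would give the same concentration of counts (inverse Simpson index), was 11.5 in replicate 1 and 11.7 in replicate 2. In other clusters a single miRNA took a larger part. The other listed miRNAs of the Dlk1-Dio3 region that lie upstream held 4.32% ± 0.451 of all counts over 36 names, of which miR-127-3p made up 60.1% ± 3.00, and their effective number was 2.53 ± 0.211. For miR-17-92 the leading miRNA, miR-92a-3p, made up 44.1% ± 0.526 with an effective number of 3.40 ± 0.0501, and for miR-290/miR-295 miR-290a-5p made up 60.9% ± 0.290 with 2.54 ± 0.0169. The differences in effective number between the miR-379/miR-410 group and each of these exceeded the spread between replicates, but the 12 names of miR-17-92 and the 18 of miR-290/miR-295 are fewer than the 68 here. Without miR-127-3p, the upstream miRNAs had an effective number of 4.61 ± 0.291.

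**Figure D2:**
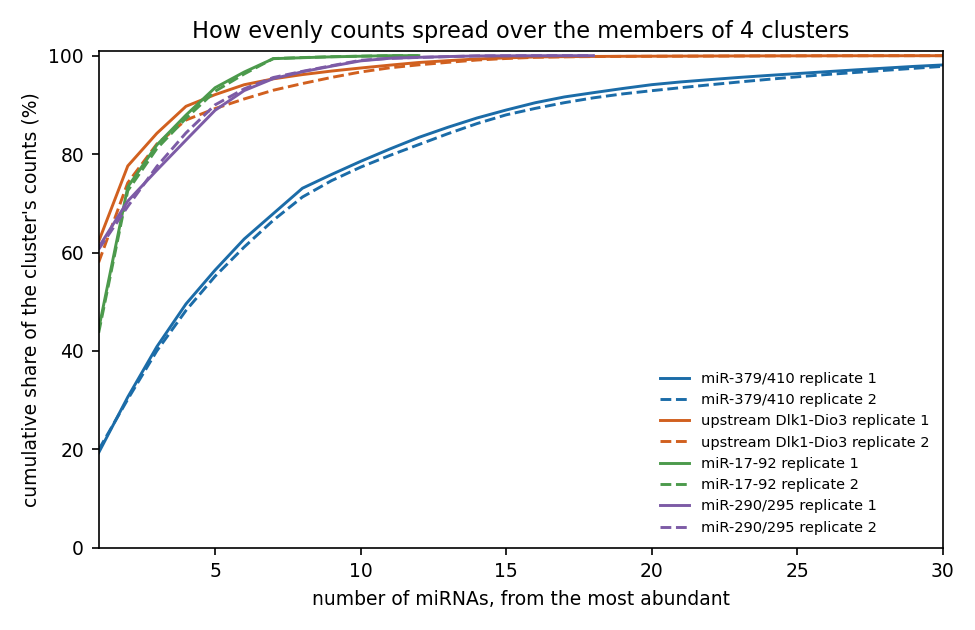
Cumulative share of the counts of each cluster (%, linear axis) against the number of its miRNAs counted from the most abundant, for 4 clusters, with solid lines for replicate 1 and dashed lines for replicate 2. The miR-379/miR-410 line starts near 20% and reaches 77.9% with 10 miRNAs, whereas the leading miRNA of the other clusters holds between 44.1% and 60.9%.

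The rule left out several miRNAs that lie in the same stretch. Of these, miR-134-5p, known for its action in dendritic spines, had 9046 and 14958 counts (0.0687% ± 0.00475), which would place it below miR-667-3p in the order above. miR-668-3p had 881 and 1839 counts. miR-654-5p, miR-654-3p, miR-453 and miR-496b were listed at 0 in both libraries. miR-299b-5p had 2 and 0 counts and miR-299b-3p 11 and 35. Both miR-299b sequences are contained within those of miR-299a, which is read from the opposite strand at the same place. The rule for reads that match both is not stated here, so the division between miR-299a and miR-299b is uncertain.

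Some hairpins of very different level lay side by side. Across the 34 hairpins, Spearman's rho between genomic order and the hairpin share was -0.0328, a description over hairpins that share libraries. Hairpins next to each other among the 34 differed by a median of 5.73-fold, and 11 of 33 such pairs differed by at least 10-fold. Some of these pairs have a miRNA gene left out by the rule between them. The same values were not computed for hairpins further apart, so they do not tell if neighbours differ more or less than other pairs. miR-494 lies 175 nt before miR-679 and had 193-fold the counts in replicate 1 and 215-fold in replicate 2. miR-409 lies 53 nt before miR-412 and exceeded it 166-fold and 168-fold. miR-666 lies 75 nt before miR-543 and was lower 56.6-fold and 48.7-fold. These 3 pairs of close neighbours were thus far apart in level in both libraries. By equal lengths of the span, the first stretch with 15 hairpins held 1.97% ± 0.113 of all counts, the middle one with 10 hairpins 1.03% ± 0.0629 and the last with 9 hairpins 0.841% ± 0.0584.

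**Figure D3:**
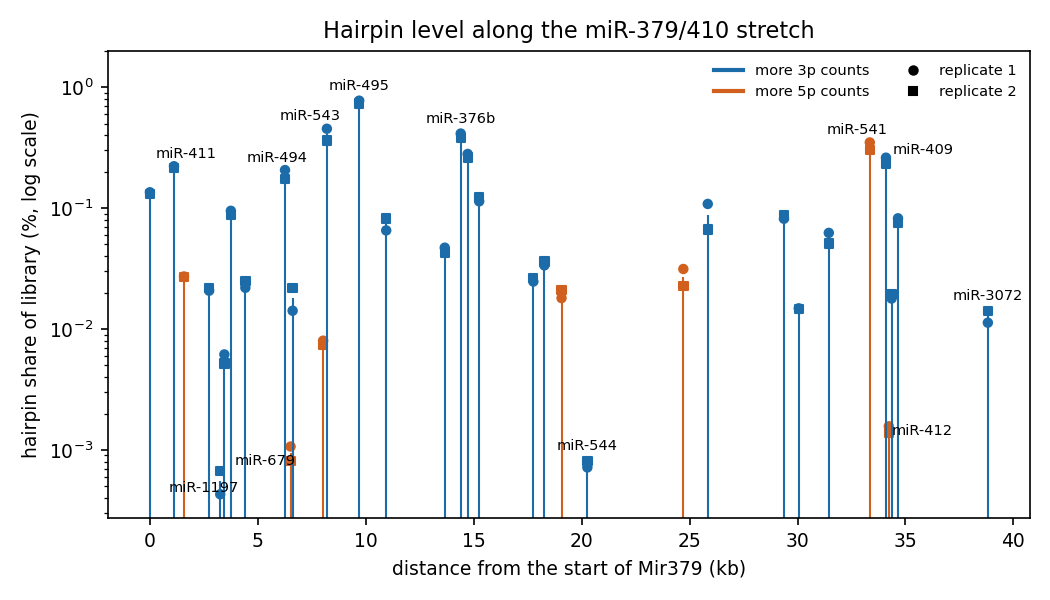
Share of the library held by each of the 34 hairpins, both arms summed (%, log axis), against the distance of the hairpin from the start of Mir379 (kb), with circles for replicate 1, squares for replicate 2, blue for hairpins with more 3p counts and orange for those with more 5p counts. Some neighbours lie far apart in level, as miR-494 and miR-679 or miR-409 and miR-412, while others such as miR-376b and miR-376a lie close, and rho between order and share is -0.0328.

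Arm use leaned to the 3p strand. The 3p strands of the group held 3.35% ± 0.200 of all miRNA counts and the 5p strands 0.491% ± 0.0341, so that 87.2% ± 0.109 of the counts of the group were 3p. By total counts this was not particular to the group. The 3p strands also held 87.8% ± 0.504 of the counts of the upstream Dlk1-Dio3 miRNAs and 85.2% ± 0.284 of those of miR-17-92. In each of these a single 3p strand held much of the total, 60.1% for miR-127-3p and 44.1% for miR-92a-3p. Without miR-127-3p the upstream value was 69.3% ± 1.04, and in miR-290/miR-295 it was 20.5% ± 1.67. Of the 32 hairpins with at least 100 counts in each library, 25 had more 3p than 5p counts in both replicates. The same held for 50.8% of all 260 such hairpins whose 2 arms are listed under the same hairpin name. Hairpins whose arms are named differently are not among the 260, and of miR-17-92 with its 12 names only 4 hairpins are. Among the 228 hairpins outside the group, 107 (46.9%) had more 3p counts. Counted by hairpin, the other clusters leaned less to 3p than the group did. More 3p counts were found in 8 of 15 upstream Dlk1-Dio3 hairpins, 1 of 4 of miR-17-92 and 3 of 9 of miR-290/miR-295. The median 3p percentage was 96.1% and 93.9% in the 2 replicates for the group, and 39.2% in both replicates for the others. No hairpin of the group changed its major arm between replicates, and the largest change in the 3p percentage was 6.87 percentage points, for miR-299a. Stable arm use was not particular to the group, since only 2 of the 228 other hairpins changed their major arm. The median change in the 3p percentage was 0.438 percentage points in the group and 0.370 in the others.

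Most hairpins were nearly single-armed. At least 90% of the counts lay on 1 arm for 24 of the 32 hairpins, against 71.2% of all 260 hairpins, a share near the background. At least 90% lay on the 3p arm for 21 of the 32 hairpins (65.6%), against 37.7% of all 260. For miR-495, 97150 and 167597 counts of the 3p strand stood beside 6 and 24 of the 5p strand. For miR-487b no 5p count was recorded, so the 3p strand was at least 1407-fold higher in replicate 1 and at least 2757-fold higher in replicate 2 (floor of 3 counts per library). For miR-496a the same bounds were 621-fold and 1114-fold. miR-541, miR-382 and miR-539 were the 3 hairpins with that much on the 5p arm, with 5p percentages of 99.4% ± 0.0758, 99.6% ± 0.0177 and 98.8% ± 0.610. miR-541-5p held 43626 and 68932 counts beside 228 and 435 of miR-541-3p. It made up 67.4% and 64.4% of all 5p counts of the group.

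A further 4 hairpins had more 5p counts without reaching 90%. miR-666 had 83.0% and 78.4% on the 5p arm, miR-679 72.4% and 68.1%, and miR-412 69.0% and 69.9%. miR-299a was the most balanced hairpin, with 1929 and 3901 counts of the 5p strand beside 1486 and 2256 of the 3p strand. Its 3p percentage was 43.5% in replicate 1, with a Wilson interval of 41.9% to 45.2%, and 36.6% in replicate 2, with an interval of 35.4% to 37.9%. The 2 intervals do not overlap. The 3p strand led without reaching 90% in miR-379 with 74.2% and 77.5%, miR-329 with 73.6% and 75.3%, miR-369 with 79.4% ± 0.879, and miR-323 with 85.3% and 89.0%. These 8 hairpins with both arms above 10% held 5.67% ± 0.291 of the counts of the group. Outside the 32 hairpins, miR-544 had 15 and 37 counts of the 5p strand beside 75 and 149 of the 3p strand, and miR-1197 had 54 and 153 counts, all of the 3p strand.

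**Figure D4:**
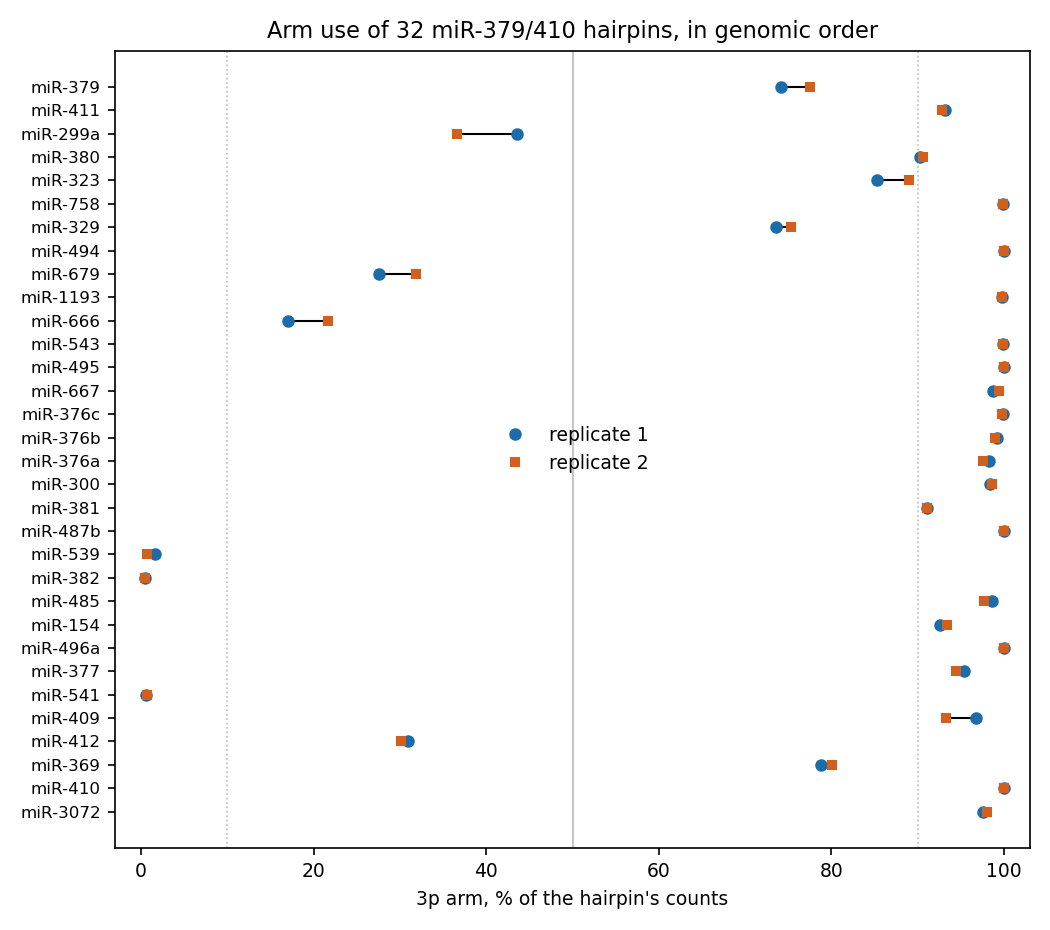
Percentage of each hairpin's counts that came from the 3p arm (linear axis), for the 32 hairpins that reached 100 counts in both libraries, in genomic order from top to bottom, with circles for replicate 1, squares for replicate 2, a solid line at 50% and dotted lines at 10% and 90%. Of these, 25 lie above 50% in both replicates, miR-541, miR-382 and miR-539 lie at the 5p end, and miR-299a shows the widest gap between replicates.

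The RefSeq hairpins of miR-495, miR-541, miR-379 and miR-299a show the 4 patterns, an almost pure 3p hairpin, an almost pure 5p hairpin, a mixed hairpin led by 3p and a balanced one. Both mature strands are in capitals, the 5p strand first, on the plus strand of chromosome 12 in GRCm38.p6.
miR-495: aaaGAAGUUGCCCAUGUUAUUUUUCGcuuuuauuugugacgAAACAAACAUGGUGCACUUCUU (chr12:109718754-109718816)
miR-541: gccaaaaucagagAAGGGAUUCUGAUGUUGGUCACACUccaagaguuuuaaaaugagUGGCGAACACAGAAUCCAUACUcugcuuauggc (chr12:109742409-109742498)
miR-379: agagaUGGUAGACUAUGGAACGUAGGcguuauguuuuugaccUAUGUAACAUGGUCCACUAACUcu (chr12:109709060-109709125)
miR-299a: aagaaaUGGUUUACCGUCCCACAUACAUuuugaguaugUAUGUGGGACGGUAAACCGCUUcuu (chr12:109710638-109710700)
Strand choice is known to depend in part on the 5′ end of each strand, since AGO2 prefers a U or A as the first base and a loosely paired end. Of the 28 hairpins of the group with at least 100 counts and both sequences, 24 had A or U as the first base of the major strand (U in 13, A in 11), and 23 had A or U as the first base of the minor strand. In 162 other hairpins A or U began 74.1% of the major strands and 51.9% of the minor ones. In the group these shares were 85.7% and 82.1%, so that its major and minor strands lay closer together, a difference that was not tested. Among bases 1 to 4, the major strand had more A or U than the minor one in 15 of the 28 hairpins, the same number in 9 and fewer in 4. In the other 162 hairpins these groups made up 46.9%, 31.5% and 21.6%. The 4 hairpins with fewer were miR-299a, miR-382, miR-412 and miR-679, all of them hairpins with more 5p counts. The mature sequences were also lower in G and C, with a median of 45.5% over the 64 members against 52.4% over 1615 other miRNAs. Both sets were taken whatever their counts. They are unlike in detection, since 34.2% of all miRNAs had at least 10 counts in each library, against 60 of the 68 members. The part of base composition in the measured levels was not tested.

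Several guides of the group resemble each other, as hairpins of this stretch are known to have arisen by duplication. miR-411-3p and miR-379-3p differ at 2 of 22 positions, counted from 1 at the 5′ end (C10U and C22U, with miR-411-3p first), and share the seed AUGUAAC. Together they held 0.307% and 0.300% of all counts, and miR-411-3p was 2.06-fold and 1.98-fold above miR-379-3p. Their 5p strands were far lower, with 1903 and 3506 counts for miR-411-5p and 4382 and 6694 for miR-379-5p, so that here miR-379 exceeded miR-411. The order of the 2 hairpins was thus opposite on the 2 arms in both libraries. miR-411 had 93.2% and 92.9% of its counts on the 3p arm, against 74.2% and 77.5% for miR-379. The 5p strands are shown because their seeds differ by 1 base (G2A, miR-379-5p first), unlike those of the 3p strands.
miR-379-5p: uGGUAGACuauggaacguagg (chr12:109709065-109709085)
miR-411-5p: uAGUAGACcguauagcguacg (chr12:109710190-109710210)

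The miR-376 hairpins form another such set, and their transcripts are known to be edited from adenosine to inosine within the seed in brain. miR-376b-3p and miR-376a-3p differ at 3 of 21 positions (A4G, C13A and U20G, with miR-376b-3p first), and the first of these lies in the seed. miR-376b-3p had 51521 and 86309 counts, miR-376a-3p 34576 and 58466, and miR-376c-3p 5902 and 9775. The 3 strands together held 0.732% and 0.675% of all counts, beside 0.773% and 0.732% for miR-495-3p alone. This was 18.3% ± 0.0549 of the counts of the group. The ratio of miR-376b-3p to miR-376a-3p was 1.49 and 1.48. On the other arm, miR-376a-5p led with 626 and 1458 counts, followed by miR-376b-5p with 416 and 869. miR-376b-5p and miR-376c-5p differ at 1 of 22 positions (G19U, miR-376b-5p first) and share their seed, and the division of reads between them is uncertain. Edited reads were not counted separately in the tables.

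miR-495-3p and miR-543-3p, the 2 most abundant members, differ at 4 of 22 positions (A6U, A7U, A9G and U10C, with miR-495-3p first), of which the first 2 lie in the seed. They held 1.23% and 1.09% of all counts together, or 30.2% ± 0.609 of the counts of the group, and miR-495-3p was 1.71-fold and 2.02-fold above miR-543-3p. miR-300-3p and miR-381-3p differ at 3 positions (G4A, U21G and C22U, with miR-300-3p first), and miR-300-3p was 4.98-fold and 5.10-fold the more abundant. miR-154-3p and miR-369-3p differ at 4 of 21 compared positions, with miR-154-3p 5.37-fold and 5.24-fold above miR-369-3p. In these 3 pairs the same member led in both libraries.

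Across the 64 members with a sequence there were 59 seeds, and 5 of these were shared by 2 members each. Besides the seed of miR-379-3p and miR-411-3p, these were the seeds of miR-379-5p and miR-1193-5p, of miR-376b-5p and miR-376c-5p, of miR-758-5p and miR-1197-5p, and of miR-410-5p and miR-494-5p. In the last 3 pairs miR-376b-5p was the highest strand, at 0.00355% of the library. For 49 of the 59 seeds no other miRNA of the tables with a RefSeq sequence had the same bases 2 to 8, and members with those seeds held 2.86% ± 0.204 of all counts. The members with the remaining 10 seeds held 0.897% ± 0.0286. Most of that was miR-495-3p, whose seed AACAAAC is also that of miR-1192 and miR-12200-5p, which together had 3 counts in each library.

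Between replicates most of the group lay close together. Of the 49 members with at least 100 counts in each library, 5 (10.2%) differed at least 1.5-fold in share, against 4.92% of all 427 such miRNAs and 16 of the 378 others. miR-409-5p differed most, with 1045 counts (0.00832%) in replicate 1 and 3567 (0.0156%) in replicate 2, a 1.87-fold higher share in replicate 2. Its partner miR-409-3p went the other way, from 0.253% to 0.218%, and the 3p percentage of the hairpin was 96.8% and 93.3%. miR-1193-3p, with 1775 and 4973 counts, was 1.54-fold higher in replicate 2. miR-485-3p, with 13398 and 14897 counts, was 1.64-fold higher in replicate 1, and was the only 1 of the 5 above 0.05%. The low strands miR-667-5p, with 102 and 109 counts, and miR-323-5p, with 114 and 130, were 1.71-fold and 1.60-fold higher in replicate 1. The other 44 members lay within 1.5-fold, 25 of the 49 were lower in replicate 2, and the median ratio of replicate 2 to replicate 1 was 0.984, against 0.973 for all 427. The SD of the log2 ratio was 0.30 for the members and 0.30 for all.

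**Figure D5:**
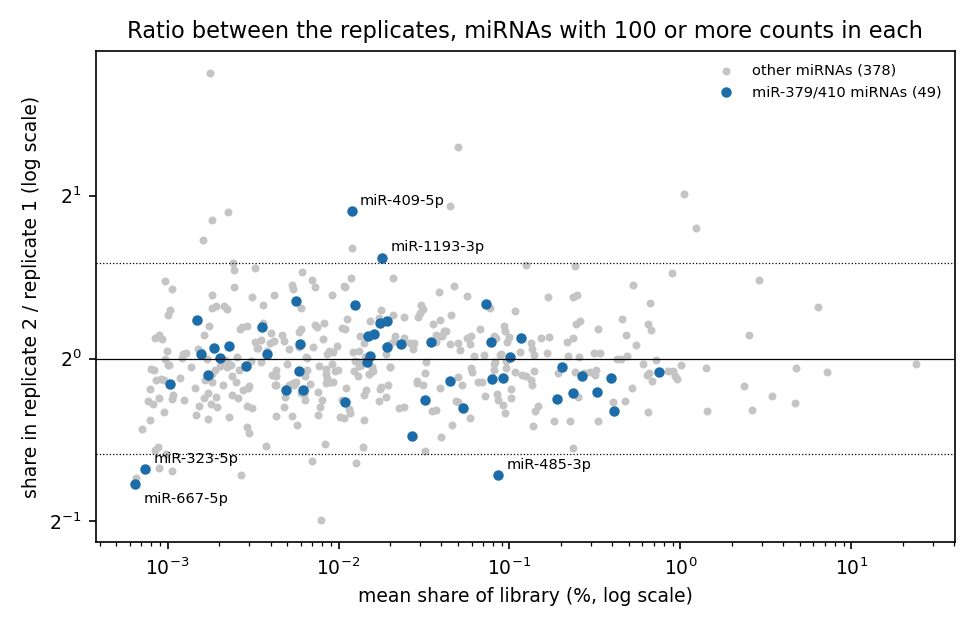
Ratio of the share in replicate 2 to that in replicate 1 (log axis) against the mean share of the library (%, log axis), for the 427 miRNAs that reached 100 counts in both libraries, with the 49 miR-379/miR-410 miRNAs in blue and the 378 others in grey. Dotted lines mark 1.5-fold, and the 5 named members beyond them are miR-409-5p and miR-1193-3p above and miR-485-3p, miR-323-5p and miR-667-5p below.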

How the data were processed

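For each of the 2 miRNA libraries, a table deposited by the authors gives whole-number counts per mature miRNA, not normalized. Tools listed without a role in the submitters' processing notes include Bowtie2 2.4.2, STAR 2.5.2a, cutadapt 2.10 and UMI-tools, with mm10 as the build. The handling of PCR copies and of reads that fit several miRNAs is not stated there. A row naming no miRNA held 0 counts and was left out. The list of target peaks was not used.

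Shares of the library total, means and SDs over 2 libraries, 95% Wilson intervals and arm percentages were computed with Python 3.11.15, numpy 2.4.6, pandas 2.3.3 and scipy 1.17.1. TMM factors came from edgeR 4.0.16 and size factors from DESeq2 1.42.0 in R 4.3.3, as alternatives. Arm use needed 100 counts per hairpin in each library and both arms listed under the same hairpin name. With 1 group, no count test could be fitted. On simulated counts, only the 1.5-fold call between replicates and the coverage of the Wilson intervals were tested. Those counts held counting error and planted changes, without the further spread between real libraries.

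Sequences and positions are those of RefSeq for GRCm38.p6. Members and lists were chosen with earlier results of these data known. Named were members with a mean share of at least 0.05%, those 1.5-fold apart between replicates, hairpins with at least 10% on the minor arm, members under 10 counts and members sharing a seed. The remaining names were chosen after their values were seen.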

Additional observations from a re-analysis of the deposited data

How the results depend on the processing

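Of 36 alternatives over 8 results, 30 stayed within the replicate SD or within 1.5 times the main count. For results given as a mean of 2 libraries, leaving 1 library out always stays within the SD, so those alternatives could not move. Limiting the 3p share to hairpins with both arms listed could not move it either, because every hairpin of the group has both. With miR-290a-5p left out of the library total, the share of the group was 5.04% in place of 3.84%. Without miR-495-3p, the share was 3.08%, the 5 most abundant members held 52.6%, the effective number was 13.7 and the 3p share was 84.1%. At a limit below 1.5-fold between replicates, 10 of 49 members passed in place of 5. The count over all miRNAs was not computed at that lower limit, so 10 of 49 cannot be set against the background. With either replicate left out, the share ranged from 3.67% to 4.0%, the effective number from 11.5 to 11.7, the 5 most abundant members from 55.2% to 56.4%, the 3p share from 87.1% to 87.3%, members with 10 counts from 60 to 62, hairpins with more 3p counts from 25 to 27, and hairpins with 90% on 1 arm from 24 to 25. Taking all 38 miRNA genes from Mir379 to Mir410 gave 3.90%. No paired analysis was possible because the tables hold 1 group of 2 libraries, and the target and input libraries that share their replicate numbers hold other RNA. Members under 10 counts are limited by depth.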
